A study of Mus musculus with 20 samples.

Results

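The RUNX family was followed as 4 genes, Runx1, Runx2, Runx3 and Cbfb, found by symbol among the 23329 gene symbols of a raw count table of mouse RNA. All 4 were in the table and all 4 passed a filter on low counts that kept 15363 genes for testing. The table holds 20 libraries in 6 groups of C57BL/6 strain mice, made from sorted myeloid cells of brain tumours, normal brain and blood. GL261 tumours, grown from a mouse glioma line, gave BMDM (bone-marrow-derived macrophages, n = 3) and MG (microglia, the resident macrophages of brain, n = 3). GEMM tumours (a genetically engineered mouse model) gave BMDM (n = 3) and MG (n = 3), and were started by injecting chicken DF1 cells that carry RCAS-PDGFB-HA or RCAS:shP53, viral vectors for the growth factor PDGFB and for a hairpin against p53, into the brain of Flt3:Cre Rosa26:mTmG mice at 6 weeks of age. Ly6C-high blood monocytes (n = 5) and MG of normal brain (n = 3) stand for the cells outside a tumour. The labels attach 1 protocol to every library, but the sources used here do not give how GL261 tumours were made, which mice gave blood and normal brain, or the ages at harvest. Tumour cells were sorted as CD45+, CD11b+, Ly6C- and Ly6G-. Flt3-Cre switches a red reporter to green in cells that pass through blood progenitors, so BMDM are the green cells and MG the red ones, and a blood-derived cell whose reporter had not switched would be sorted with MG. MG and BMDM of 1 tumour share a number in their titles. Nothing in the labels says that the monocyte and normal MG libraries came from separate animals, so p-values that use them measure the spread between these libraries, which may be technical.

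RUNX proteins bind DNA through a conserved Runt domain, and CBFβ, the product of Cbfb, is their shared partner, which does not bind DNA itself and makes the Runt domain bind more tightly. Runx1 is needed for the first blood stem cells and marks the yolk sac progenitors that give rise to microglia. Runx2 is the master factor of bone-forming cells and is also expressed in plasmacytoid dendritic cells and their progenitors. Runx3 is known for CD8 T cells, natural killer cells, innate lymphocytes and dendritic cells such as the Langerhans cells of skin. Each Runx gene can be read from a distal and a proximal promoter, and the counts are per gene, so they do not tell the 2 starts apart.

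The start regions of the 3 Runx genes are shown because they share a run of bases that holds the RUNX core motif, ACCACA, 2 times. Its other strand reads TGTGGT. RefSeq sequences were taken from GRCm38.p6, and the windows searched covered 250 bases before to 50 bases after each annotated start, 6 windows for the 4 genes. Capitals mark ACCACA, and each line is 30 bases read 5′ to 3′ on the strand of the gene.
Runx3, chr4:135120503-135120532, plus strand: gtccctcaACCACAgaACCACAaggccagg
Runx2, chr17:44814583-44814612, minus strand: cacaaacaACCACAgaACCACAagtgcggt
Runx1, chr16:92826025-92826054, minus strand: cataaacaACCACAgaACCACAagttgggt

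The run common to all 3 is caaccacagaaccacaag, 18 bases long. It begins 136 bases before the distal start of Runx3, 21 bases after that of Runx2 and 26 bases after that of Runx1. Among 32851 windows of 27025 genes it was found in 4, those of Runx1, Runx2, Runx3 and the predicted gene Gm16225. ACCACA on either strand stood at least once in 16.8% of all windows, at least 2 times in 1.81% and at least 3 times in 0.18%. The distal windows of Runx1 and Runx3 held it 2 times and that of Runx2 3 times, and the second windows of Runx1 and Runx3 and the window of Cbfb held none. A match is a description of letters and shows no binding. The 250 bases before the distal starts of Runx3 and Runx2 follow, since these 2 genes separate BMDM from MG in the counts below, with ACCACA on either strand in capitals.
Runx3, chr4:135120395-135120644, plus strand: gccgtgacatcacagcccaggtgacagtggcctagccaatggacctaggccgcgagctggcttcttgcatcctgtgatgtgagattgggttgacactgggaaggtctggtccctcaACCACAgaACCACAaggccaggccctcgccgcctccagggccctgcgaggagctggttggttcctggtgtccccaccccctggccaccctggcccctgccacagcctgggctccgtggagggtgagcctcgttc
Runx2, chr17:44814628-44814877, minus strand: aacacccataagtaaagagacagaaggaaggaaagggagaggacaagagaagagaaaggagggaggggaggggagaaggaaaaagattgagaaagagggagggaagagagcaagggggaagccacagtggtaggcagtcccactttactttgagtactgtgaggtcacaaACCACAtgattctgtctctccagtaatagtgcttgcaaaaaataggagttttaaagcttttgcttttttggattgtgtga

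Positions are those of GENCODE M21 on GRCm38. Runx1 lies on chromosome 16 from 92601466 to 92826149 on the minus strand, with 7452 exon bases over its coding transcripts. Runx2 lies on chromosome 17 from 44495987 to 44814797 on the minus strand (7092 exon bases). Runx3 lies on chromosome 4 from 135120652 to 135177990 on the plus strand (4176 exon bases), and Cbfb on chromosome 8 from 105170674 to 105217989 on the plus strand (2914 exon bases). The antisense RNAs Gm26626 and Runx2os1, not analysed here, share 106 exon bases with Runx1 and 519 with Runx2. No source used here gives the strand setting of the counting, so reads of those stretches cannot be assigned to a strand.

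Depth was 18113450 to 36297826 counts in tumour libraries, 5077787 to 7801073 in blood monocytes and 26421803 to 30391652 in normal MG. Levels are in CPM, the counts of a gene relative to the TMM-adjusted total of its library. A pair of monocyte libraries held 13.5 and 14.3% ribosomal precursor (Rn45s), against 1.05 to 1.62% in the other 3, and results are given without that pair where a call changed. Monocytes had 142 to 646 CPM of Xist and 0 to 2.76 CPM of the Y-linked Ddx3y, whereas Ddx3y was at 36.3 to 223 CPM in every other group and Xist at 0 to 2.88, so comparisons with monocytes also compare sexes. Ptprc (CD45) and Itgam (CD11b) were present in every group, and Ly6c2 averaged 48.7 CPM in GL261 BMDM, 5.42 in GEMM BMDM, 1063 in monocytes and 0 in normal MG. Summed over 8 microglia genes, GL261 BMDM stood at 820 to 1650 CPM and GL261 MG at 2240 to 8160, GEMM BMDM at 3160 to 6510 and GEMM MG at 14100 to 22800, monocytes at 258 to 351 and normal MG at 31300 to 35500. In bulk libraries fewer cells of a type and less RNA per cell cannot be told apart.

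Runx3 was the member that varied most on the log2 scale, highest in BMDM and near 0 in normal MG. GL261 BMDM had 120, 138 and 93.6 CPM, and GL261 MG 21.3, 14.6 and 13. GEMM BMDM had 84.9, 102 and 118 CPM, and GEMM MG 3.74, 13.1 and 5.40. Monocytes ranged from 52.9 through a median of 55.4 to 59.4 CPM, and normal MG had 0.202, 0.0783 and 0.137 CPM, which are 6, 2 and 4 counts. Every BMDM library was above every monocyte library, every monocyte library above every tumour MG library, and every tumour MG library above every normal one. How many of all genes separate groups like this was not counted, for Runx3 here or for Runx2 below. Within MG, 1 GEMM library (tumour BB30101, 13.1 CPM) lay among the GL261 libraries and the other 2 below them.

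Runx2 was highest in monocytes and near 0 in MG. GL261 BMDM had 11.4, 7.99 and 7.76 CPM, and GL261 MG 1.2, 0.531 and 1.83. GEMM BMDM had 15.2, 20.6 and 15.7 CPM, and GEMM MG 0.492, 1.75 and 0.221. Monocytes ran from 26.9 through 33.6 to 36.2 CPM, and normal MG had 0.470, 0 and 0.309, which are 14, 0 and 9 counts, and the 0 allows up to 0.117 CPM (3 counts, counting error only). The 3 kinds of blood-derived cells did not overlap one another or any MG library, while GEMM MG overlapped GL261 MG and normal MG, which did not overlap each other. Runx2 and Runx3 passed the filter through the groups in which they are high, since all but 1 of their counts in normal MG were under its minimum of 10.

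Runx1 was high everywhere and highest in normal MG. GL261 BMDM had 70.7, 56.0 and 73.9 CPM, and GL261 MG 108, 103.5 and 36.9. GEMM BMDM had 106, 181 and 153 CPM, and GEMM MG 104, 90.7 and 104. Monocytes ran from 94.6 through 103 to 113.5 CPM, and normal MG had 178, 189 and 181. Tumour 80769 gave the lowest Runx1 of all 20 libraries, in MG, and the same library had the lowest microglia sum of any MG library (2240 CPM) and 802 CPM of oligodendrocyte precursor or glioma markers, against 392 and 533 in the other GL261 MG.

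Cbfb, the gene of the shared partner, varied least on the log2 scale. GL261 BMDM had 105, 83.8 and 94.4 CPM, and GL261 MG 74.1, 51.1 and 76.0. GEMM BMDM had 126, 145 and 137.5 CPM, and GEMM MG 128, 87.1 and 117. Monocytes ran from 95.5 through 122 to 123.5 CPM, and normal MG had 87.2, 86.5 and 80.4. The lowest library in the table was MG of GL261 tumour 80767 and the highest was BMDM of GEMM tumour BB30101.

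**Figure D1:**
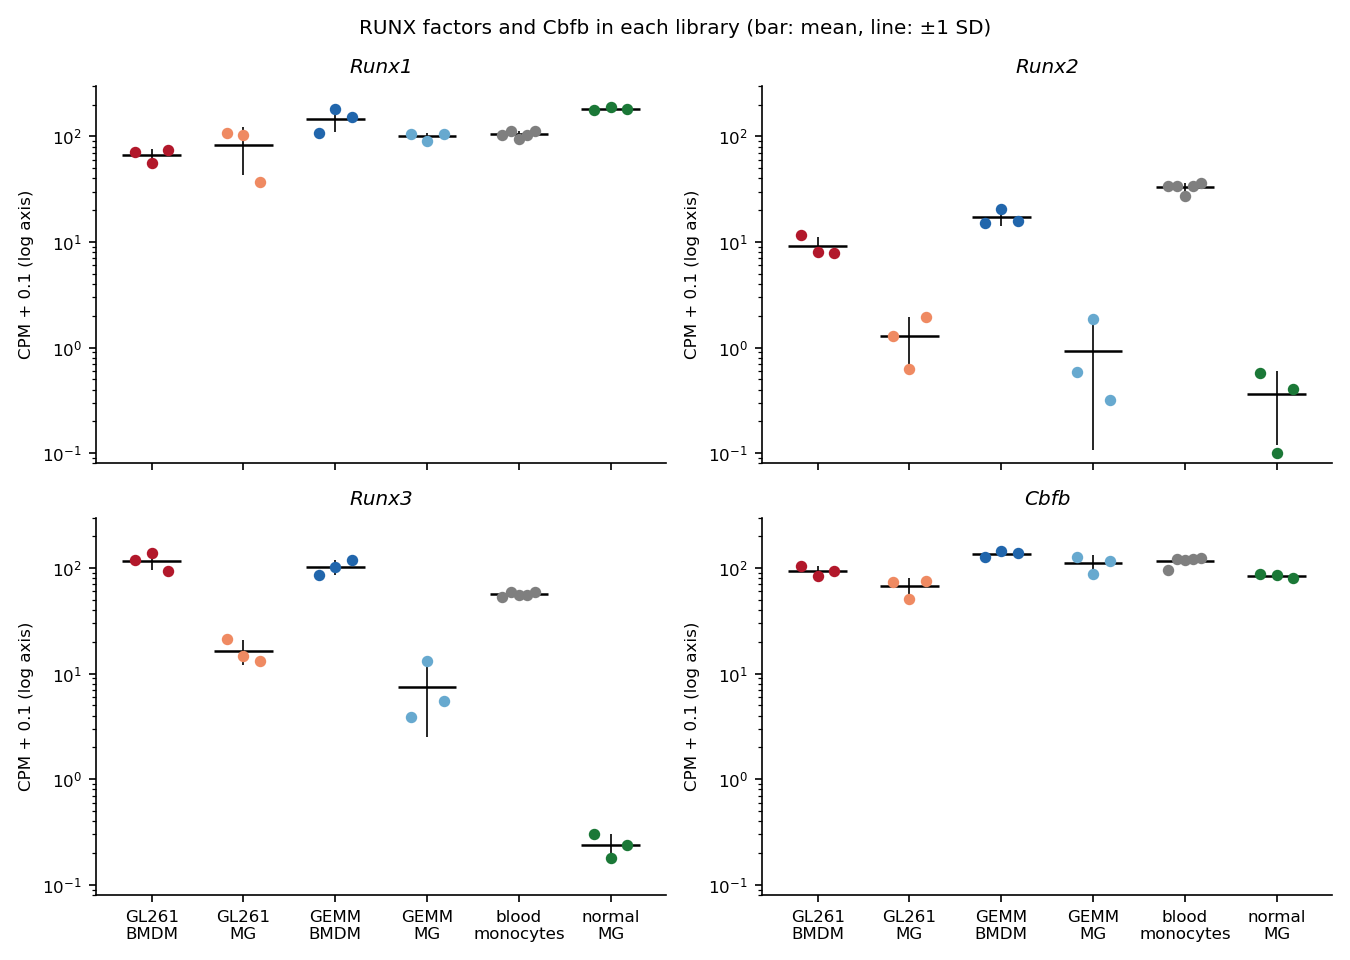
CPM + 0.1 on a log axis in each of the 20 libraries for the 4 genes, 1 point per library, with the group mean as a bar and 1 SD as a vertical line. Runx3 points of GL261 BMDM lie at 93.6 to 138 CPM, those of GL261 MG at 13 to 21.3 and those of normal MG at 0.0783 to 0.202, while Runx1 spans 36.9 to 189 CPM over all libraries.

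In order of mean level Runx3 ran from GL261 BMDM through GEMM BMDM, monocytes, GL261 MG and GEMM MG to normal MG. Neighbours differed at an adjusted p under 0.05 in edgeR except for the 2 kinds of BMDM (adjusted p = 0.673), and for monocytes against GL261 MG the adjusted p was 3.99e-05 where 66.7% of all genes were called in either direction. The share of all genes called was 57.3% from GEMM BMDM to monocytes, 34.3% from GL261 MG to GEMM MG and 43.8% from GEMM MG to normal MG. Runx2 ran from monocytes through GEMM BMDM, GL261 BMDM, GL261 MG and GEMM MG to normal MG, and the step from GL261 BMDM to GL261 MG was the one step called, where 17.5% of all genes were called. Runx1 ran from normal MG through GEMM BMDM, monocytes, GEMM MG and GL261 MG to GL261 BMDM, with overlapping ranges and no call at any step. Its steps from normal MG to GEMM BMDM and from monocytes to GEMM MG were not called in contrasts that called 53.1% and 64.7% of all genes. Cbfb ran from GEMM BMDM through monocytes, GEMM MG, GL261 BMDM and normal MG to GL261 MG, also with no step called, and the steps from GEMM MG to GL261 BMDM and from GL261 BMDM to normal MG stood against 35% and 60.6% of all genes called.

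Per kilobase of exon the make-up of the family differed between lineages. Runx3 supplied 72.8 ± 6.10% of the summed Runx CPM per kb in GL261 BMDM and 27.8 ± 8.85% in GL261 MG, and 52.6 ± 4.73% in GEMM BMDM and 11.5 ± 7.59% in GEMM MG (SD, n = 3 each). Monocytes were at 41.9 ± 1.53% (n = 5) and normal MG at 0.137 ± 0.0639% (n = 3). Runx1 supplied most in MG, with 70.8 ± 10.3% in GL261 MG, 87.7 ± 8.28% in GEMM MG and 99.7 ± 0.203% in normal MG, against 23.9 ± 5.79% in GL261 BMDM and 42.1 ± 4.45% in GEMM BMDM. Runx2 reached 14.3 ± 1.01% in monocytes, stayed at 3.35 ± 0.675 and 5.26 ± 0.812% in GL261 and GEMM BMDM, and was at 1.46 ± 1.44% or less in each kind of MG.

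**Figure D2:**
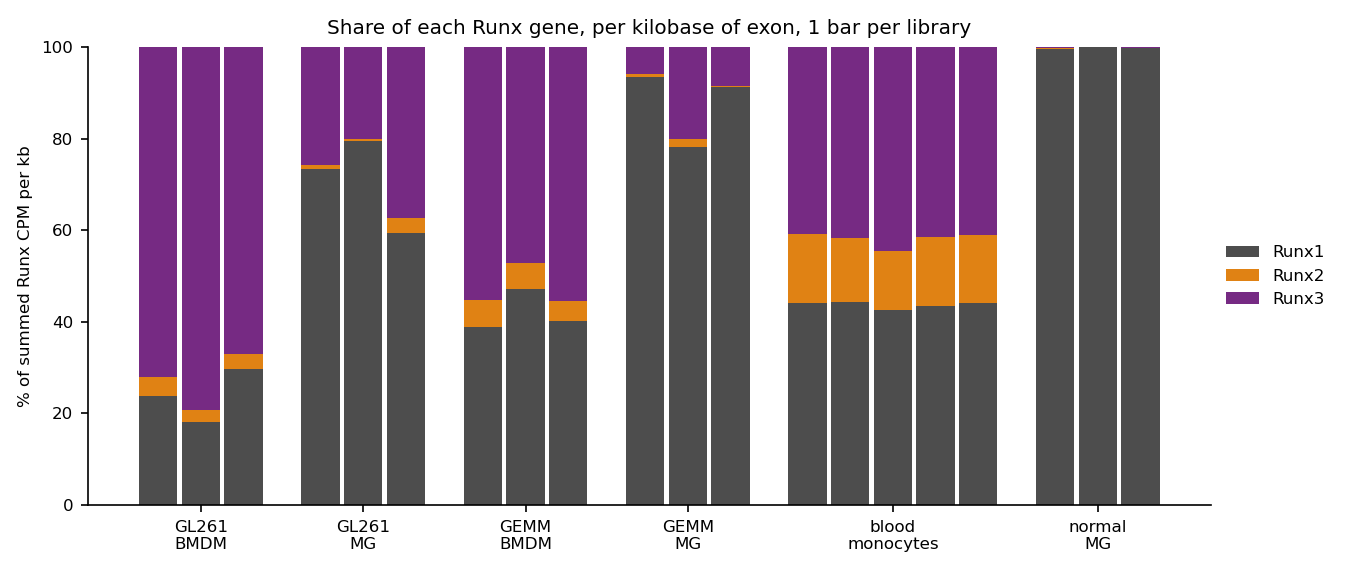
Share of Runx1, Runx2 and Runx3 in the summed Runx CPM per kilobase of exon (y axis, %), 1 bar per library. Normal MG are 99.7% Runx1 on average, and in GL261 BMDM Runx3 makes up 67.1 to 79.2%.

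The sum of the 3 Runx genes over Cbfb, both per kilobase, was 1.19 ± 0.221 in GL261 BMDM and 0.698 ± 0.346 in GL261 MG. These GL261 ranges did not overlap (1.03 to 1.45 against 0.319 to 0.997). GEMM BMDM had 0.988 ± 0.124 and GEMM MG 0.415 ± 0.0943, with no overlap (0.847 to 1.08 against 0.34 to 0.521). Monocytes had 0.813 ± 0.0846 and normal MG 0.847 ± 0.042. These are RNA levels, and protein was not measured. Ratios within a library do not depend on scaling. The log2 ratio of Runx3 to Runx1 counts was higher by 3.02 in GL261 BMDM than in GL261 MG and by 3.44 in GEMM BMDM than in GEMM MG, with no overlap in either model, and each exact two-sided permutation p was 0.1, the smallest that 3 against 3 allows. Over 18 such tests of 2 ratios no adjusted p was below 0.129.

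To ask which members mark origin inside a tumour, BMDM were compared with MG of the same tumours. Runx2 and Runx3 were higher in BMDM of both models. Runx3 was 7.16-fold higher in GL261 BMDM than in GL261 MG (log2 fold change 2.84 ± 0.33 SE, edgeR adjusted p = 1.39e-05) and 13.5-fold higher in GEMM BMDM than in GEMM MG (3.76 ± 0.34, edgeR adjusted p = 1.51e-06). Runx2 was 7.53-fold higher in GL261 BMDM (2.91 ± 0.57, edgeR adjusted p = 0.0018) and 19.6-fold higher in GEMM BMDM (4.29 ± 0.60, edgeR adjusted p = 6.97e-05). No BMDM library overlapped an MG library for either gene. The ranges of Runx1 in GEMM tumours and of Cbfb in GL261 tumours did not overlap either. How many of all genes separate in this way was not counted, here or in the comparisons below. Runx1 did not pass in GL261 (−0.31 ± 0.27, edgeR adjusted p = 0.455) or GEMM (0.56 ± 0.27, edgeR adjusted p = 0.160) tumours. Without MG of tumour 80769, Runx1 was lower in GL261 BMDM (−0.66 ± 0.17, edgeR adjusted p = 0.0129). Cbfb was higher in GL261 BMDM by 0.49 ± 0.16 on the log2 scale (edgeR adjusted p = 0.0424), a call that ended with DESeq2 size factors (adjusted p = 0.0698), without the filter (adjusted p = 0.0871), in a fit of these 2 groups alone (adjusted p = 0.146) and with the tumour as a block (adjusted p = 0.0554), and it was not called in GEMM (0.30 ± 0.16, edgeR adjusted p = 0.204). It also ended without BMDM of tumour 80766 (adjusted p = 0.142) or 80769 (adjusted p = 0.103) and without MG of tumour 80767 (adjusted p = 0.186). Over all genes tested, 10.7% were called higher and 6.81% lower in GL261 BMDM, and 12.7% and 8.1% in GEMM BMDM.

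Read tumour by tumour, Runx3 in MG was 17.8, 10.6 and 13.9% of its level in BMDM of the same GL261 tumours and 4.41, 12.9 and 4.58% in the GEMM tumours. Runx2 in MG was at 10.5, 6.64 and 23.6% in GL261 and 3.25, 8.49 and 1.41% in GEMM. Monocyte genes were set beside them. Ccr2, the receptor that brings monocytes out of marrow, was at 1.76, 7.04 and 14.4% in GL261 and 4.78, 6.17 and 2.03% in GEMM MG, and Itga4, the integrin α4 gene, at 16.8, 20 and 42.1% and at 5.53, 8.56 and 2.83%. Plac8 and Ly6c2 were between 1.64 and 25.3% in every tumour. Vcan, Fn1 and F13a1, also on the list, ranged more widely. Vcan, a matrix proteoglycan gene, was higher in MG than in BMDM of all 6 tumours, at 276, 155 and 418% in GL261 and 136, 1130 and 126% in GEMM. Fn1, fibronectin, was at 117, 76.7 and 24.9% in GL261 and 211, 30.5 and 19.4% in GEMM, and F13a1, a clotting factor subunit gene, at 3.68, 2.85 and 21.5% and at 18.2, 74.8 and 57.6%. The 8 monocyte markers together summed to 1010 to 4270 CPM in GL261 BMDM and 505 to 1080 CPM in GL261 MG, and in GEMM tumours to 689 to 1290 CPM in BMDM and 130 to 262 in MG, with none of the 8 at 0. Their part in the level of Runx2 and Runx3 in MG was not tested. MG of GEMM tumour BB30101 had the highest Runx2 and Runx3 of the 3 GEMM MG libraries, and also the lowest microglia sum (14100 CPM), 81.2 CPM of mast cell and basophil markers against 2.26 and 0.93, and 9.5 CPM of T cell markers against 2.41 and 2.92.

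**Figure D3:**
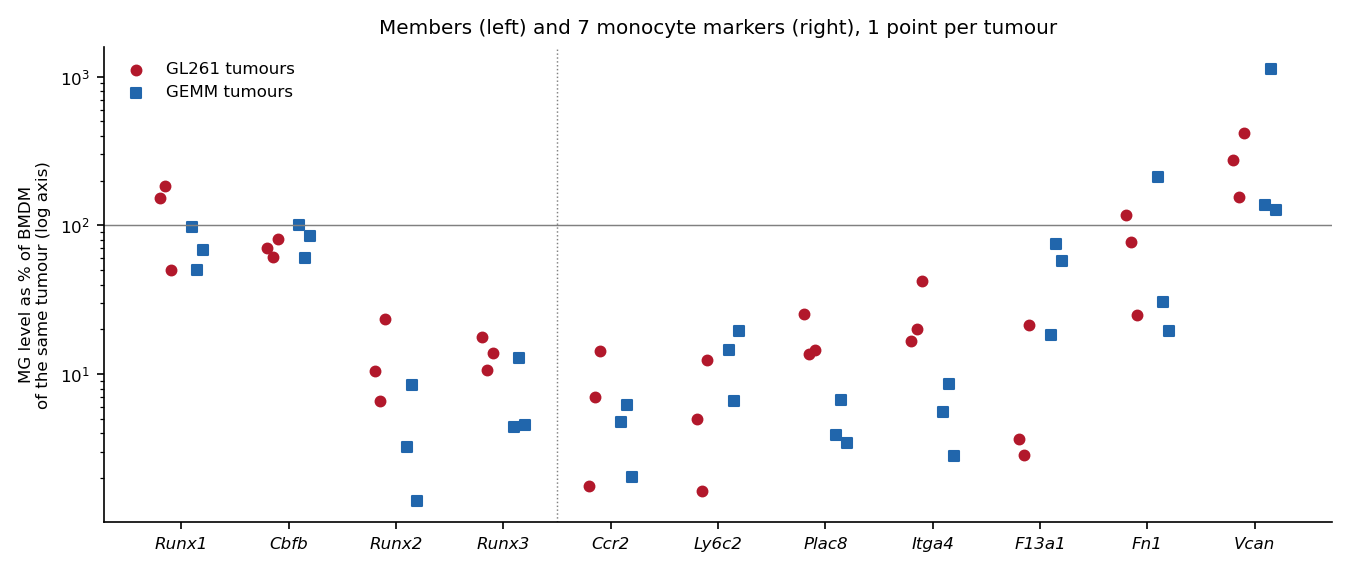
CPM in MG as a percentage of CPM in BMDM of the same tumour, on a log axis, for the 4 genes (left of the dotted line) and 7 monocyte markers (right), 1 point per tumour, with 100% drawn as a line. Runx2 and Runx3 lie between 1.41 and 23.6%, and Runx1 and Cbfb lie between 49.9 and 185%. Among the markers Vcan is above the line in all 6 tumours, at 126 to 1130%, and Fn1 in 1 tumour of each model.

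Cell types in which Runx3 or Runx2 are known to be high were followed with lists of marker genes. Conventional dendritic cell markers summed to 164 to 593 CPM in GL261 BMDM and 107 to 155 CPM in GL261 MG. In GEMM tumours they summed to 525 to 1470 CPM in BMDM and 92.9 to 128 in MG. Most of the MG sums was 1 gene, Fscn1, averaging 104.6 CPM in GL261 MG and 75.3 in GEMM MG. It averaged 67.9 CPM in GL261 BMDM and 72.1 in GEMM BMDM. The other markers had higher means in BMDM, except Xcr1 in GL261 tumours (4.025 CPM in BMDM, 4.90 in MG). Flt3 averaged 26.3 CPM in BMDM and 2.32 in MG of GL261 tumours, and 189 and 7.40 in GEMM tumours. T cell markers (7 of 8 in the table) summed to 10.3 to 18.4 CPM in GL261 BMDM and 10.2 to 19.8 CPM in GL261 MG, and in GEMM tumours to 10.1 to 59.6 CPM in BMDM and 2.41 to 9.5 in MG. The T cell sums of the lineages overlapped in GL261 tumours and did not overlap in GEMM tumours. NK cell markers summed to 24.1 to 37.8 CPM in GL261 BMDM and 11.2 to 15.3 CPM in GL261 MG, and in GEMM tumours to 14.7 to 44.6 CPM in BMDM and 3.99 to 7.37 in MG. Plasmacytoid dendritic cell markers summed to 78.4 to 121 CPM in GL261 BMDM and 144 to 147 CPM in GL261 MG, and in GEMM tumours to 125 to 131 CPM in BMDM and 130 to 156 in MG. Most of that sum was 1 gene, Tcf4, at means of 89.7 CPM in GL261 BMDM, 120 in GL261 MG, 99.2 in GEMM BMDM, 119 in GEMM MG and 158 in normal MG. Cox6a2 was also lower in BMDM, at means of 5.72 CPM against 20.7 in MG of GL261 tumours and 3.68 against 16.6 in GEMM tumours. So was Pacsin1, at 1.41 CPM against 3.1 in GL261 tumours and 1.83 against 5.45 in GEMM tumours. Some other markers of the list had higher means in BMDM. Spib had 1.57 CPM in BMDM and 0.381 in MG of GL261 tumours, and 9.08 in BMDM and 0.295 in MG of GEMM tumours. In GEMM tumours Ccr9 averaged 11.5 CPM in BMDM and 0.809 in MG, and Ly6d averaged 2.20 CPM in BMDM and 0.0948 in MG. The bone markers Sp7 and Bglap reached at most 0.188 and 0.563 CPM in any library. The part of T, NK and dendritic cells in the Runx2 and Runx3 differences was not tested.

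Whether the lineage difference depended on the model was tested as an interaction, GL261 minus GEMM. None of the 4 genes passed, against 0.605% of all genes higher and 1.02% lower. The log2 difference was −0.86 ± 0.38 for Runx1 (edgeR adjusted p = 0.283), −1.38 ± 0.79 for Runx2 (edgeR adjusted p = 0.429), −0.92 ± 0.44 for Runx3 (edgeR adjusted p = 0.328) and 0.19 ± 0.23 for Cbfb (edgeR adjusted p = 0.748). Single libraries decided 2 of these values. Without MG of GL261 tumour 80769 Runx1 stood at −1.22 (edgeR adjusted p = 0.0131), and without MG of GEMM tumour BB30101 Runx3 stood at −1.52 (edgeR adjusted p = 0.0205).

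**Figure D4:**
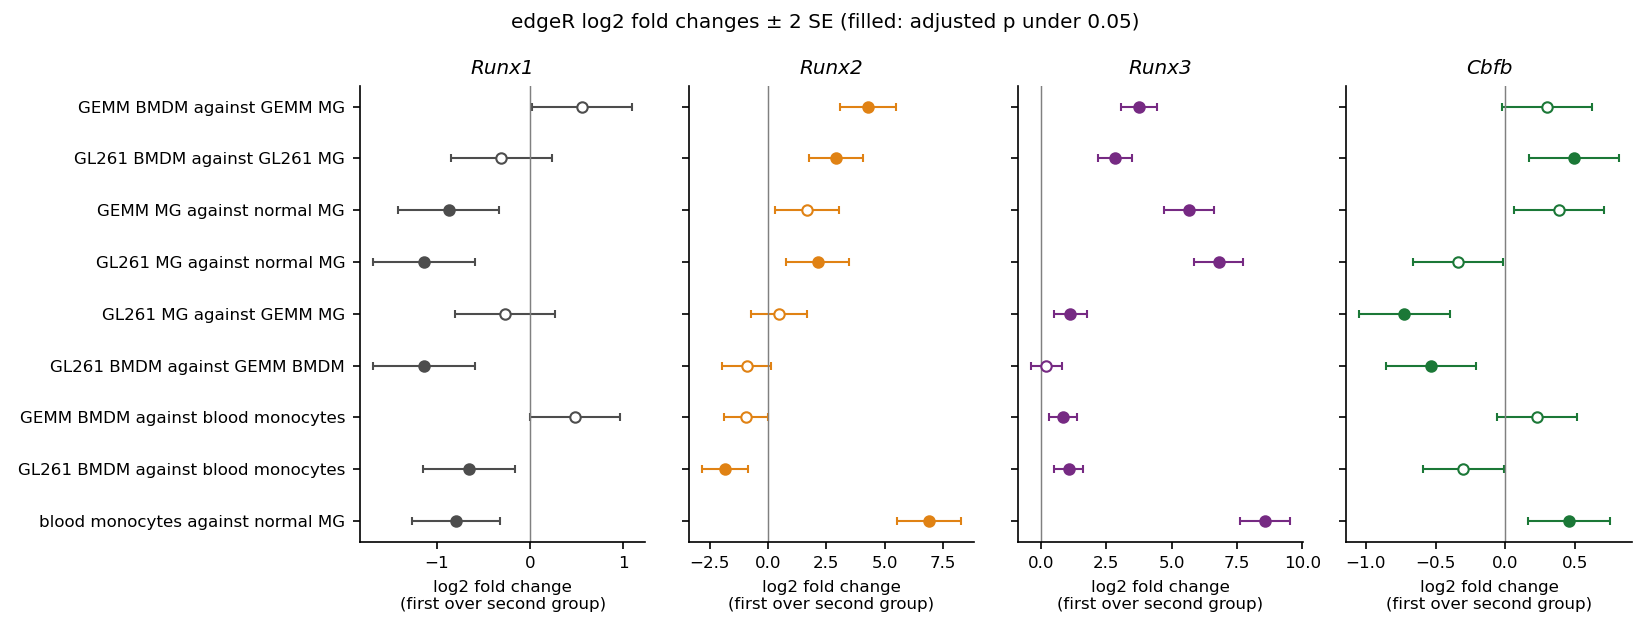
Log2 fold changes (x axis, first over second group) of the 4 genes in 9 pairwise comparisons, with bars of 2 SE from 1 edgeR fit of 20 libraries and filled points at an adjusted p under 0.05. Runx3 is filled and positive in 8 of the 9 comparisons, with 8.58 between monocytes and normal MG as its highest value, and the x axes differ between genes.

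Microglia of tumours were set against normal MG to ask what a tumour changes in resident cells. Runx3 rose and Runx1 fell in both models. Runx3 was 111-fold higher in GL261 MG (log2 fold change 6.79 ± 0.47, edgeR adjusted p = 6.36e-09) and 50.9-fold higher in GEMM MG (5.67 ± 0.47, edgeR adjusted p = 1.01e-07), on 331 to 498 and 76 to 450 counts per tumour library and 2 to 6 counts per normal one. Runx1 was lower in GL261 MG (−1.14 ± 0.27, edgeR adjusted p = 0.00168) and in GEMM MG (−0.87 ± 0.27, edgeR adjusted p = 0.0148), and no tumour library reached a normal one. The GEMM call for Runx1 ended without MG of tumour BB30101 (−0.79, adjusted p = 0.0689) and without normal library 67573 (−0.83, adjusted p = 0.0503). Runx2 was higher in GL261 MG (2.14 ± 0.68, edgeR adjusted p = 0.0117) and was not called in GEMM MG (1.68 ± 0.69, edgeR adjusted p = 0.0555). Both Runx2 values rest on few counts, 12 to 49 in GL261 MG, 5 to 60 in GEMM MG and 0 to 14 in normal MG. The GL261 call ended without tumour 80769 (1.67, adjusted p = 0.0725) and in a fit of these 2 groups alone (adjusted p = 0.0918), and the GEMM value passed with DESeq2 (1.74, adjusted p = 0.0151). Cbfb did not pass in GL261 MG (−0.34 ± 0.16, edgeR adjusted p = 0.0817) or GEMM MG (0.39 ± 0.16, edgeR adjusted p = 0.0607), though the GEMM value passed with DESeq2 (0.44, adjusted p = 0.0272). These contrasts called 30.6% of all genes higher and 27.2% lower in GL261 MG, and 23% and 20.9% in GEMM MG. Monocyte markers summed to 505 to 1080 CPM in GL261 MG and 130 to 262 in GEMM MG against 19.4 to 34.4 in normal MG, with Ly6c2 at 0 in normal MG. Most of that sum was Fn1, at means of 639 CPM in GL261 MG and 149 in GEMM MG against 3.44 in normal MG, while Ccr2 averaged 9.58 and 12.6 CPM in GL261 and GEMM MG against 8.20 in normal MG, and F13a1 10.1 and 10.6 CPM against 11.4. NK cell markers summed to 11.2 to 15.3 CPM in GL261 MG and 3.99 to 7.37 in GEMM MG against 0.587 to 0.994 in normal MG, and T cell markers to 10.2 to 19.8 and 2.41 to 9.5 CPM against 0.514 to 1.01, with Cd3e and Cd8a at 0 in normal MG. Oligodendrocyte precursor or glioma markers stood at 392 to 802 CPM in GL261 MG and 129 to 187 in GEMM MG against 1.68 to 4.01 in normal MG. The part of these marker groups in the differences was not tested.

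The models were compared within each lineage. In MG, Runx3 was 2.17-fold higher in GL261 than in GEMM tumours (log2 fold change 1.12 ± 0.32, edgeR adjusted p = 0.011) and Cbfb was lower (−0.72 ± 0.16, edgeR adjusted p = 0.0024). The Cbfb ranges did not overlap with TMM scaling but did with plain totals. With those, Cbfb averaged 82.6 CPM in GL261 MG (63.8 to 97.0) and 100 CPM in GEMM MG (82.4 to 113). The Runx3 ranges overlapped, and the call ended without GL261 tumour 80766 (0.85, adjusted p = 0.0646), without GEMM tumour 68702 (0.71, adjusted p = 0.0926) or BB30105 (0.84, adjusted p = 0.0907), and in a fit of these 2 groups alone (adjusted p = 0.13). Runx1 (−0.27 ± 0.27, edgeR adjusted p = 0.468) and Runx2 (0.46 ± 0.60, edgeR adjusted p = 0.583) did not pass, and 18.8% of all genes were called higher and 15.5% lower. The T and NK cell sums given above were also higher in each GL261 MG library than in each GEMM MG library, and their part was not tested. In BMDM, Runx1 was lower in GL261 than in GEMM tumours (−1.14 ± 0.27, edgeR adjusted p = 0.00742), with no overlap, and so was Cbfb (−0.53 ± 0.16, edgeR adjusted p = 0.027). The Cbfb call ended without GEMM BMDM of tumour BB30101 (−0.52, adjusted p = 0.0597), without GL261 BMDM of tumour 80767 (−0.43, adjusted p = 0.137) and in a fit of these 2 groups alone (adjusted p = 0.0564). Runx3 differed by 0.21 ± 0.30 (edgeR adjusted p = 0.673, interval of 2 SE from −0.40 to 0.81). Runx2 was at −0.92 ± 0.51 (edgeR adjusted p = 0.223), although its ranges did not overlap and limma-voom called it (−0.93, adjusted p = 0.0313). Here 10.2% of all genes were called higher and 9.46% lower.

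Against Ly6C-high monocytes, BMDM had more Runx3 and GL261 BMDM had less Runx2. Runx3 was higher in GL261 BMDM (log2 fold change 1.05 ± 0.27, edgeR adjusted p = 0.00245) and GEMM BMDM (0.85 ± 0.27, edgeR adjusted p = 0.0121), in every library. Runx2 was lower in GL261 BMDM (−1.85 ± 0.49, edgeR adjusted p = 0.00338) and was at −0.93 ± 0.47 in GEMM BMDM (edgeR adjusted p = 0.0977), where the ranges did not overlap and DESeq2 (−1.05, adjusted p = 0.0479) and limma-voom (−0.93, adjusted p = 0.00391) called it. Runx1 was lower in GL261 BMDM (−0.65 ± 0.25, edgeR adjusted p = 0.0287), a call lost without the pair of monocyte libraries rich in Rn45s (−0.64, adjusted p = 0.0678), without the filter (−0.58, adjusted p = 0.0664) and without any 1 of the GL261 BMDM libraries (adjusted p = 0.0526 to 0.119). In GEMM BMDM Runx1 was at 0.48 ± 0.24 (edgeR adjusted p = 0.0946). Cbfb was at −0.30 ± 0.15 in GL261 BMDM (edgeR adjusted p = 0.0804) and 0.23 ± 0.14 in GEMM BMDM (edgeR adjusted p = 0.182). The shares of all genes called were 34.1% higher and 28.9% lower for GL261 BMDM, and 31.6% and 25.7% for GEMM BMDM. Neutrophil markers summed to 14.8 to 2010 CPM in BMDM of either model and 1500 to 23000 in monocytes, which overlapped. Platelet markers summed to 72.5 to 155 CPM in BMDM and 837 to 1890 in monocytes, and B cell markers to 8.04 to 37.4 CPM in BMDM and 81.5 to 680 in monocytes. The part of these cells was not tested.

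Outside a tumour the lineages were further apart in the fold changes of Runx2 and Runx3. In monocytes against normal MG, Runx3 was 382-fold higher (log2 fold change 8.58 ± 0.48, edgeR adjusted p = 6.85e-11) and Runx2 120-fold higher (6.91 ± 0.69, edgeR adjusted p = 8.64e-08). Runx1 was lower in monocytes (−0.80 ± 0.24, edgeR adjusted p = 0.00735) and Cbfb higher (0.46 ± 0.15, edgeR adjusted p = 0.0114), and the Cbfb call was lost without the filter (0.34, adjusted p = 0.0622) and without normal library 67574 (0.40, adjusted p = 0.0615). Of all genes, 30.4% were called higher and 32.4% lower. Markers of several other blood cells were higher in monocytes too, but those of dendritic cells overlapped. Plasmacytoid dendritic cell markers summed to 99.2 to 252 CPM in monocytes and 153 to 179 in normal MG. Conventional ones summed to 132 to 229 CPM in monocytes and 163 to 186 in normal MG. Neutrophil markers summed to 1500 to 23000 CPM in monocytes and 0.352 to 0.638 in normal MG. T cell markers summed to 27.9 to 70.5 CPM in monocytes and 0.514 to 1.01 in normal MG, and NK cell markers to 37.1 to 189 CPM in monocytes and 0.587 to 0.994 in normal MG. B cell markers summed to 81.5 to 680 CPM in monocytes and 25.1 to 40.1 in normal MG, and platelet markers to 837 to 1890 CPM in monocytes and 33.9 to 41.9 in normal MG. Their part in the Runx2 and Runx3 differences was not tested.

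Last, the step from monocytes to BMDM was set against the step from normal MG to tumour MG, as an interaction. For Runx3 the difference of the log2 steps was −5.74 ± 0.56 in GL261 (edgeR adjusted p = 3.14e-07) and −4.82 ± 0.56 in GEMM tumours (edgeR adjusted p = 3.27e-06). So on the log2 scale the lineages were nearer to each other in the tumour than outside it, where normal MG had 2 to 6 counts. In CPM the Runx3 gap was wider in the tumour. BMDM and MG averaged 117 and 16.3 CPM in GL261 tumours and 101.5 and 7.42 in GEMM tumours. Monocytes and normal MG averaged 56.4 and 0.139 CPM. Runx2 gave −3.99 ± 0.83 in GL261 (edgeR adjusted p = 0.000819) and −2.61 ± 0.83 in GEMM tumours (edgeR adjusted p = 0.0186), and the GEMM call ended without MG of tumour BB30101 (−1.38, adjusted p = 0.221). For Runx1 the GEMM value was 1.35 ± 0.36 (edgeR adjusted p = 0.00644) and the GL261 value 0.49 (edgeR adjusted p = 0.289). Cbfb was not called, at 0.04 in GL261 (edgeR adjusted p = 0.918) and −0.16 in GEMM (edgeR adjusted p = 0.597). These contrasts called 23.1% of all genes higher and 21.2% lower in GL261, and 22.1% and 16.8% in GEMM. In GEMM this split was 3401 higher and 2579 lower genes, and with DESeq2 size factors, which moved the median of all genes to −0.09 from 0.08, it was 2684 higher and 3071 lower. They contain both the monocytes and the lineage comparison above, so they share its libraries.

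Genes with profiles most like each member were ranked over the 20 libraries among 8922 genes at 20 CPM or more in at least 1 group, by the root mean square difference of centred log2 CPM. For Runx3 they were Ifi205 (0.46), Ciita (0.56) and Cd40 (0.637), against a spread of 3.01 in Runx3 itself. Ciita, the activator of MHC class II genes, averaged 128 CPM in BMDM of GL261 tumours and 30.4 in their MG, 246 CPM in BMDM of GEMM tumours and 11.6 in their MG, 96.0 in monocytes and 0.629 in normal MG. For Runx2 they were Stap1 (0.69), Nlrc4 (0.709) and Pf4 (0.718), against a spread of 2.69. Pf4, platelet factor 4, is itself on the list of platelet markers. Nlrc4, an inflammasome sensor, averaged 19.2 CPM in BMDM of GL261 tumours and 1.78 in their MG, 19.7 CPM in BMDM of GEMM tumours and 0.688 in their MG, 25.2 in monocytes and 0.195 in normal MG. For Runx1 they were 1200014J11Rik (0.284), Brf1 (0.332) and Smndc1 (0.334), against 0.574, and for Cbfb Lypla1 (0.164), Mina (0.188) and Eri1 (0.193), against 0.367. These are descriptions over libraries that share groups and depth.

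Proteins that RUNX factors recruit were followed as 21 corepressors and coactivators, all tested. In BMDM against MG of GL261 tumours 1 was higher and 2 lower, with a median log2 fold change of −0.03 against −0.08 for all genes, and in GEMM tumours 4 were higher and 1 lower (0.29 against 0.01). Over all genes 10.7% were called higher and 6.81% lower in the GL261 comparison and 12.7% and 8.1% in the GEMM one, so these counts lie near the background. Cbfa2t3, an ETO family corepressor of myeloid progenitors, was higher in GL261 BMDM (7.02 ± 4.71 CPM, against 2.32 ± 0.680 in GL261 MG, SD) and in GEMM BMDM (64.4 ± 16.7 against 4.91 ± 1.30 CPM in GEMM MG), and the model interaction was −2.11 ± 0.49 (edgeR adjusted p = 0.0365). Tle1, a Groucho corepressor that RUNX proteins bind through their C-terminal end, was 5.89-fold higher in GEMM BMDM (42.4 ± 8.92 CPM, against 7.20 ± 0.920 in GEMM MG, edgeR adjusted p = 3.47e-06) and averaged 28.4 ± 7.77 CPM in BMDM and 24.5 ± 8.04 in MG of GL261 tumours (interaction −2.35 ± 0.36, edgeR adjusted p = 0.00349). Tumour MG against normal MG gave 9 higher and 8 lower in GL261 (median 0.04 against 0.01) and 3 higher and 12 lower in GEMM (−0.70 against −0.02), where all genes gave 30.6% higher and 27.2% lower in GL261 and 23% and 20.9% in GEMM. Aes and Prmt1, an arginine methyltransferase of RUNX1, rose in MG of both models. Cbfa2t3 and Ep300, a histone acetyltransferase, were among the members lower in both.

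Of 12 enzymes that modify RUNX proteins, 2 were higher and none lower in GL261 BMDM against GL261 MG (median 0.03 against −0.08), and 5 were higher and none lower in GEMM BMDM against GEMM MG (0.29 against 0.01). The shares of all genes called higher were 10.7% in GL261 and 12.7% in GEMM, and 2 of 12 is near that background. Pim1, a kinase of RUNX1 and RUNX3, was higher in GL261 BMDM (45.6 ± 2.37 CPM, against 16.6 ± 5.58 in GL261 MG, edgeR adjusted p = 0.00375) and in GEMM BMDM (47.1 ± 7.24 against 11 ± 3.86 in GEMM MG, edgeR adjusted p = 0.00017). Hipk2, which phosphorylates RUNX1, was 2.64-fold higher in GEMM BMDM (38.2 ± 7.23 CPM, against 14.4 ± 3.42 in GEMM MG, edgeR adjusted p = 6.79e-05) and averaged 32.8 ± 6.48 in GL261 BMDM and 33.4 ± 3.47 in GL261 MG. Against normal MG, GL261 MG had 4 higher and 3 lower (median −0.05 against 0.01) and GEMM MG 4 higher and 2 lower (0.29 against −0.02), beside the 30.6% higher and 27.2% lower of all genes in GL261 MG and the 23% and 20.9% in GEMM MG. Pim1 rose in both, and Smurf1, a ubiquitin ligase of RUNX2 and RUNX3, fell to 32 ± 11.3 CPM in GL261 MG and 54.6 ± 7.03 in GEMM MG, against 118 ± 14.1 in normal MG.

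Among 17 blood transcription factors that act with RUNX, GL261 BMDM had 1 higher and 2 lower than GL261 MG (median 0.15 against −0.08), the higher one being Sfpi1 (PU.1), at 323 ± 17.0 CPM against 185 ± 61.8 in GL261 MG. GEMM BMDM had 3 higher and 1 lower than GEMM MG (−0.29 against 0.01), and both sets of counts lie near the shares of all genes (10.7% higher and 6.81% lower in GL261, 12.7% and 8.1% in GEMM). In tumour MG against normal MG, 1 was higher and 9 lower in GL261 (median −0.49 against 0.01) and 3 were lower in GEMM (−0.18 against −0.02). Of all genes 27.2% were lower in GL261 MG and 20.9% in GEMM MG, so 3 of 17 is near the background. Fli1, an ETS factor that works with RUNX1 in blood stem cells, fell to 49.2 ± 18.1 CPM in GL261 MG and 114 ± 26.5 in GEMM MG, against 220 ± 16.4 in normal MG. Cebpb, a macrophage activation factor, rose in GL261 MG (250 ± 174 CPM, against 80.8 ± 13.6 in normal MG, edgeR adjusted p = 0.00437). The 9 Smads and TGF-beta receptors, which meet RUNX proteins at shared sites, gave 1 higher and 1 lower in GL261 BMDM against GL261 MG (median −0.10 against −0.08) and 1 lower in GEMM BMDM against GEMM MG (−0.38 against 0.01), with Smad3 lower in both, where 6.81% and 8.1% of all genes were lower. Against normal MG, 7 fell in GL261 MG (median −1.14 against 0.01) and 5 in GEMM MG (−0.59 against −0.02), and none rose, beside 27.2% and 20.9% of all genes called lower. Smad1 was at 59.0 ± 8.27 CPM in GL261 MG and 56.4 ± 6.4 in GEMM MG, against 134.5 ± 17.3 in normal MG.

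Of 15 genes known as RUNX targets in blood cells 14 were tested, Il3 being too low. In BMDM against MG, 5 were higher and none lower in GL261 (median log2 fold change 1.21 against −0.08) and 6 were higher and 1 lower in GEMM (1.98 against 0.01), beside 10.7% of all genes higher in GL261 and 12.7% in GEMM. Itgae, the CD103 integrin gene bound by RUNX3 in T cells, was 23.6-fold higher in GEMM BMDM (210.4 ± 78.9 CPM, against 8.81 ± 7.05 in GEMM MG, edgeR adjusted p = 8.53e-05), and GL261 BMDM had 15.9-fold less of it than GEMM BMDM (13.2 ± 5.73 CPM, edgeR adjusted p = 0.000333). Csf1r, the survival receptor of macrophages, was lower in GEMM BMDM (3087 ± 499 CPM, against 5736 ± 1241 in GEMM MG, edgeR adjusted p = 0.0365). Tumour MG against normal MG gave 4 higher and 4 lower in GL261 (median 1.52 against 0.01) and 3 higher and 2 lower in GEMM (0.48 against −0.02). All genes gave 30.6% higher and 27.2% lower in GL261 and 23% and 20.9% in GEMM, so these counts are near or under the background. Itgal, the LFA-1 integrin gene regulated by RUNX3 in human leukocytes, was at 85.2 ± 55.5 CPM in GL261 MG and 77.0 ± 12.2 in GEMM MG, against 0.312 ± 0.135 in normal MG (edgeR adjusted p = 7.85e-08 and 1.96e-07). Irf7, the interferon factor, was at 311 ± 62.3 CPM in GL261 MG and 172 ± 43.0 in GEMM MG, against 10.1 ± 0.886 in normal MG, and Csf1r fell to 2908 ± 1469 CPM in GL261 MG and 5736 ± 1241 in GEMM MG, against 11790 ± 1299.

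**Figure D5:**
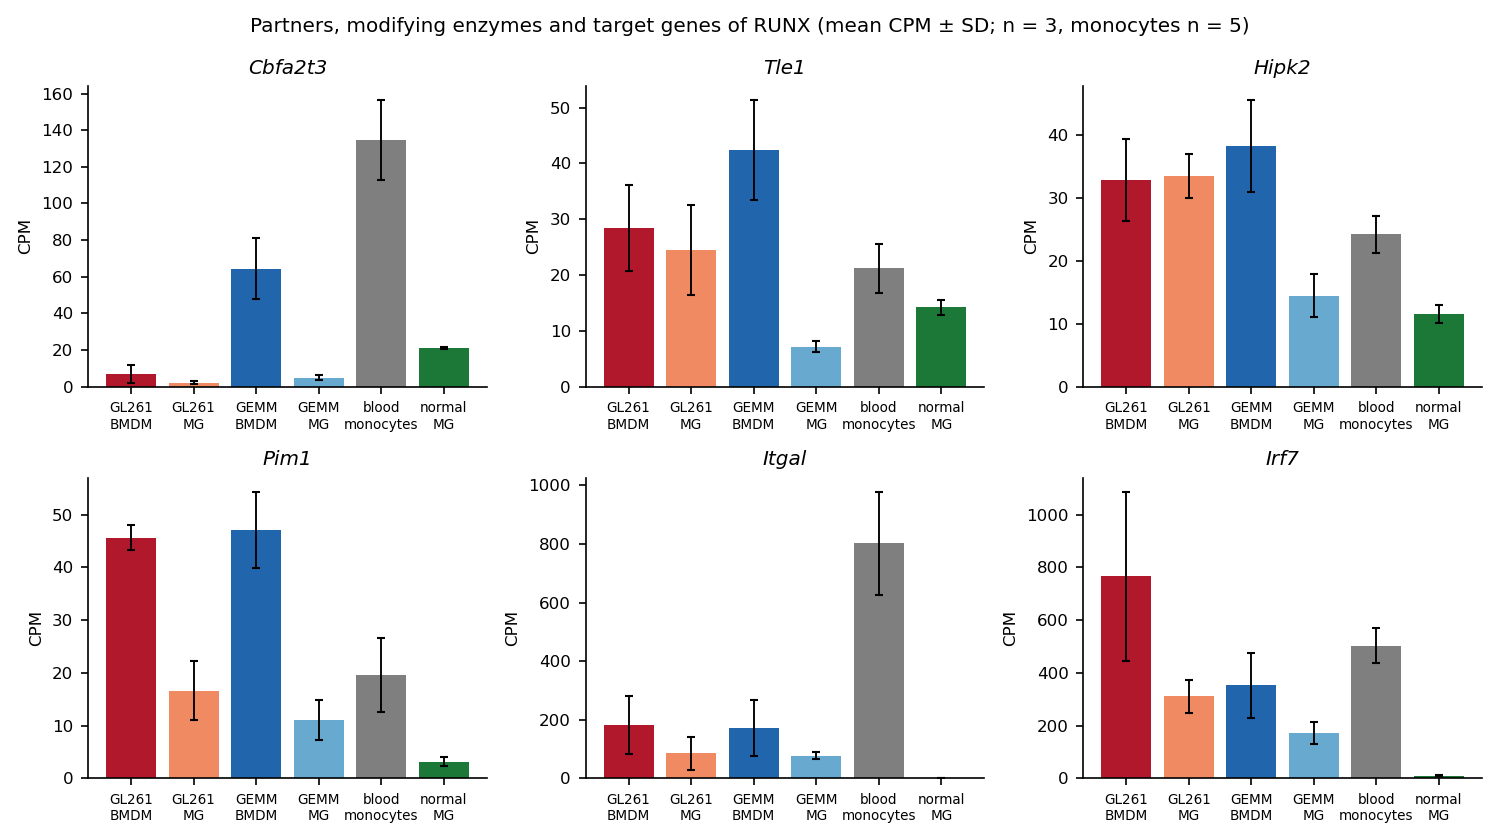
Mean CPM with SD in the 6 groups for a corepressor pair (Cbfa2t3, Tle1), a kinase pair (Hipk2, Pim1) and 2 target genes (Itgal, Irf7). Tle1 and Hipk2 separate BMDM from MG in GEMM tumours (42.4 and 38.2 CPM against 7.20 and 14.4) and average 28.4 and 32.8 CPM in BMDM and 24.5 and 33.4 in MG of GL261 tumours, and Itgal and Irf7 are lowest in normal MG (0.312 and 10.1 CPM).

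Of 11 bone targets of RUNX2, 8 were tested and Ibsp, Bglap and Sp7 were too low. Vegfa was the 1 called in BMDM against MG, where 10.7% (GL261) and 12.7% (GEMM) of all genes were called higher. It was higher in GL261 (288 ± 50.5 CPM, against 102.5 ± 78.2 in GL261 MG, edgeR adjusted p = 0.0456) and in GEMM BMDM (183 ± 17.2 against 52.9 ± 7.65 CPM in GEMM MG, edgeR adjusted p = 0.0163). Against normal MG, 6 of the 8 rose in GL261 MG (median 5.24 against 0.01) and 5 in GEMM MG (3.51 against −0.02), and none fell, beside 30.6% and 23% of all genes called higher. Spp1, osteopontin, averaged 797 ± 336 CPM in GL261 MG and 1747 ± 1592 in GEMM MG, against 17.5 ± 8.50 in normal MG, in groups where Runx2 itself averaged 1.19 and 0.821 CPM against 0.260. Mmp13, a collagenase, averaged 137 ± 194 CPM in GL261 MG, 7.81 ± 8.89 in GEMM MG and 0.0357 ± 0.0030 in normal MG. GL261 BMDM averaged 2174 CPM of Spp1 and 648 of Mmp13, with Runx2 at 9.06. GEMM BMDM averaged 1233 CPM of Spp1 and 28.2 of Mmp13, with Runx2 at 17.1. Blood monocytes, with the most Runx2, averaged 2.98 ± 1.17 CPM of Spp1 and 0.214 ± 0.174 of Mmp13. Mmp9, a gelatinase on the same list, was instead highest there, at 465.8 ± 326 CPM against 0.277 ± 0.138 in normal MG (edgeR adjusted p = 0.000551), and averaged 17.7 CPM in GL261 BMDM and 27.6 in GEMM BMDM. Osteoblast or fibroblast markers summed to 23 to 120 CPM in GL261 MG and 10.6 to 14.1 in GEMM MG, against 0.857 to 0.94 in normal MG, and their part was not tested.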

How the data were processed

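RNA of sorted cells was made into libraries with the Smart-Seq kit, per the labels' protocols. The table deposited by the authors gives unnormalized whole-number counts for each symbol. Per the submitters' processing notes the tools were HTSeq, DESeq2, STAR 2.5.0e and CASAVA 1.8, and the build was mm10. Counts of 20 libraries in 6 groups, grouped by their labels, were fitted in 1 model with edgeR 4.0.16 (quasi-likelihood test, robust, TMM scaling) in R 4.3.3, after filterByExpr with a minimum count of 10 and a minimum total of 15. P-values of 12 comparisons were adjusted by Benjamini-Hochberg over all 15363 genes tested, and a gene was called at an adjusted p under 0.05. SE are of log2 fold changes, and SD are between libraries. CPM are counts relative to TMM-scaled totals, with the usual CPM factor, and CPM per kb were divided by exon length. Ratios had 0.5 added to each count and were compared by exact permutation with scipy 1.17.1. Alternatives were DESeq2 size factors, DESeq2 1.42.0, limma-voom (limma 3.58.1), no filter, only the groups compared, a tumour block, other totals, other added counts and leaving out each library. The fit without the monocyte pair rich in Rn45s was chosen after seeing the data. The model fit was tested on simulated counts. The 4 genes, the gene lists and the marker lists were chosen with earlier results of these data known. Genes named from a list were, in each comparison, up to 2 called genes per direction with the smallest p among genes at 20 CPM or more in 1 group, and Ep300, Mmp13, Tle1 and Hipk2 are also given in the model where that rule did not name them. Same-numbered MG and BMDM are matched by tumour in the series' design, and their deviations from the group means correlated at 0.2 or more, against at most 0.08 for other numbers. Within each group every pair of libraries differed by more than sampling noise (lowest chi-square per degree of freedom 3.08). That lowest value was for monocyte libraries 64818 and 64819, and monocyte libraries 64820 and 64821 had 3.97. All other pairs had 18.2 or more. The labels do not say whether the libraries of such a close pair came from separate animals. Ly6g was not analysed here.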

Additional observations from a re-analysis of the deposited data

Results flagged for a closer look

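In blood monocytes the lowest Cbfb library (64817, 95.5 CPM) lay apart from the other 4, with a gap of 0.825 of the group's range. The lowest Runx2 library (64819, 26.9 CPM) lay apart likewise, with a gap of 0.713. Such a gap is passed by chance in about 1 in 20 groups.

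The step from monocytes to BMDM differed from the step from normal MG to tumour MG for 3 genes in GEMM tumours, by a test of the difference itself. It was 1.35 for Runx1 (edgeR adjusted p = 0.00644), −2.61 for Runx2 (edgeR adjusted p = 0.0186) and −4.82 for Runx3 (edgeR adjusted p = 3.27e-06) on the log2 scale. In GL261 tumours it was −3.99 for Runx2 (edgeR adjusted p = 0.000819) and −5.74 for Runx3 (edgeR adjusted p = 3.14e-07). Monocytes and normal MG also differ in sex, and its part in these values was not tested.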

How the results depend on the processing

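Under settings other than leaving out 1 library, 244 log2 fold changes kept direction and side of the threshold, 16 newly passed it, 10 no longer did and 2 changed sign. With 1 library left out, 369 kept both, 10 newly passed, 16 no longer did and 5 changed sign. The sign changes were all in values that were not called. Cbfb in the response of GL261 tumours was −0.12 with DESeq2 size factors, −0.12 with DESeq2, −0.10 without GL261 MG 80767 and −0.03 without monocytes 64817, against 0.04. Leaving out 1 library gave −0.104 to 0.179 for it. Between GL261 and GEMM MG, Runx2 was −0.07 without GEMM MG BB30105 and −0.01 without GL261 MG 80769, with a range of −0.068 to 1.65, and Runx1 was 0.0816 without GL261 MG 80769, with a range of −0.525 to 0.0816. The number of the 4 genes called in GEMM MG against normal MG was 2 and became 4 with DESeq2 size factors and 4 with DESeq2. Of all genes, 3527 were called higher and 3204 lower there, 3740 and 2885 with DESeq2 size factors, and 4020 and 3204 with DESeq2. In GEMM BMDM against monocytes the number of the 4 genes was 1 and became 3 without the filter, 2 with DESeq2, 2 with limma-voom and 3 with only the groups compared. Of all genes, 4859 were called higher and 3941 lower there, and 5235 and 3623 without the filter. DESeq2 called 4410 and 4732, limma-voom 4332 and 3989, and the fit of only the groups compared 3959 and 3620. In GL261 against GEMM MG the number of the 4 genes was 2 and became 1 with only the groups compared. Of all genes, 2892 were called higher and 2383 lower there, and 2186 and 1713 with only the groups compared. Changes smaller in proportion are not listed, such as those from the Cbfb call in GL261 BMDM against GL261 MG described above. With 1 library left out the number of the 4 genes ran from 1 to 3 in GEMM MG against normal MG, from 1 to 2 in GL261 against GEMM MG, from 1 to 2 in GL261 against GEMM BMDM and from 0 to 1 for the lineage difference. Of all genes, 2978 to 3394 were then called higher in GEMM MG against normal MG, and 33 to 280 for the lineage difference. With plain totals, and with totals without Rn45s, 4 of 6 groups kept their place in the order of Runx1, as did 4 for Cbfb without Rn45s. The tumour as a replicate block changed 1 call, Cbfb in GL261 BMDM against GL261 MG (0.51, adjusted p = 0.0554), and could not be fitted between models, where no animal gave both. The cause of these changes was not tested. Low counts limit Runx2 in MG. The limit given for its count of 0 covers counting error only, whereas the intervals of 2 SE include the spread between libraries.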
